A study of Bos taurus with 14 samples.

Results

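The comparison is between bovine embryonic stem cells at passage 10 (P10) and the same cells at later passages. It rests on 10 of the 14 RNA libraries of the study: 2 at P10, from line A and line B, and 8 later ones, line A at P13, P23, P35 and P45 and line B at P12, P24, P35 and P46. The cells came from blastocysts and were kept on MEFs, mouse embryonic fibroblast feeders, in a medium called CTFR with added human FGF2 and IWR1, an inhibitor of WNT signalling. By the labels this culture was the same at all passages, and no genetic change is stated for either group. The other 4 libraries, 2 blastocyst samples and 2 fibroblast lines, serve below only as a check. Each passage of a line gave 1 library, and the libraries of a line are serial passages of 1 culture, so a p-value measures the spread between passages.

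The P10 libraries were deposited in 1 set of files with the blastocysts and fibroblasts, and the 8 later libraries in another set with another feature list. Passage and file set therefore cannot be told apart by the groups alone. The sets had 21008 names in common, and 18440 remained without the 2568 that carry a numbered suffix. A further 33 genes were left out because they stood under 0.1 RPKM in all libraries of 1 set and above 10 RPKM in the other. RPKM is a read count scaled to the size of the gene and to the depth of the library. The 33 include RPL3, RPL7, NOP56 and GTF2F1, which were low in the later set and high at P10. They also include genes such as CDX2 and SST, high only in blastocysts or fibroblasts and low at P10 and later alike. Of the genes kept, 10719 reached 1 RPKM in at least 2 of the 10 libraries and were tested. Without the rule 10726 would have been. POU5F1 and NANOG are not analysed here.

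Embryonic stem cells renew themselves while keeping the ability to form all tissues of the body. Cells in the primed state resemble the epiblast around implantation, depend on FGF and its kinase ERK, and express OTX2 and POU3F1, whereas naive-state cells express KLF4 and related factors. Immediate early genes such as FOS and JUN respond within minutes to growth factors and to handling, and hypoxia-induced genes respond to low oxygen through HIF factors.

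The labels were checked first. SOX2, a core pluripotency factor, stood at 151 and 148 RPKM in the P10 libraries of lines A and B and between 154 and 205 RPKM in the 8 later libraries, against 0.257 and 1.81 RPKM in the fibroblasts. OTX2 and SALL4 were listed at 0 in both fibroblast lines and were above 27 RPKM in all 10 stem cell libraries. Markers of keratinocytes and of blood cells were mostly too low to test: 1 of 8 and 2 of 12 listed genes passed the filter. The reads behind the values could be recovered from the low RPKM steps. The P10 libraries held 23356403 (line A) and 28978834 (line B) mapped reads, and the later ones 24823605 to 35908036. Across the 10719 genes the P10 libraries correlated with each other at a Pearson r of 0.954 and with later libraries at 0.876 to 0.929, as a description with no test. The later libraries nearest to P10 were line A at P13 and at P35.

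At P10, 1042 genes were higher than in later passages and 2911 were lower (limma, adjusted p under 0.05), which is 9.72% and 27.2% of the 10719 tested, or 36.9% in either direction. Of these, 177 higher (1.65%) and 623 lower genes (5.81%) differed at least 2-fold relative to the median gene, which stood at -0.09 on the log2 scale. Both P10 libraries lay above all 8 later ones in 1045 genes (9.75%) and below all of them in 2834 (26.4%). Below, a log2 change is P10 minus later on log2(RPKM + 1), adjusted for line and given relative to that median gene, and the p tests the fitted change before the median is subtracted. The split between directions depended on the scaling. Higher genes made up 26.4% of the calls as deposited, 57.0% after quantile normalization, 47.5% after median-of-ratios scaling and 55.7% with equal sums over the shared names. All 1042 higher genes and 1509 of the lower genes were called in the same direction under these 4 scalings, and none was called in the opposite direction. Only 184 genes (1.72%) were higher and 1251 (11.7%) lower against P12 and P13 alone. Quantile normalization called 22.0% of the genes higher and 16.6% lower. Counts of list members below are to be read against these shares, and as deposited against 9.72% and 27.2%. Among the later libraries themselves, limma called 0 of 10611 genes between P12 or P13 and P23 to P46, with 732 genes (6.90%) at an unadjusted p under 0.05.

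The share of higher and lower calls differed along gene length. Lengths were recovered from the value of 1 read, and 10059 of the tested genes had the same length in both file sets. Of those, 871 were higher (8.66%) and 2718 lower (27.0%), and of the 60 with another length 24 were higher (40.0%) and 17 lower (28.3%). Genes called higher had a median length of 3112 bases, genes called lower 1532 bases and uncalled genes 2073 bases. Of the 2057 shortest genes 4.91% were higher and 44.7% lower at P10, and of the 2057 longest 22.9% were higher and 13.2% lower. Later libraries also differed from each other along length: line A at P13 stood on the same side as P10, with a Spearman rho of 0.18 across genes, and line A at P23 on the other, with -0.19. When the trend of each library along length was subtracted, 1597 genes were higher (15.5%) and 1794 lower (17.4%). Its values are given below for some of the groups that it changes, not for all. Among the others, 4 of 9 heat shock, 2 of 16 cholesterol synthesis and 1 of 7 BMP and ID genes were lower after it. In the cholesterol group 1 gene was higher, and so were all 3 mitochondrially encoded genes with a known length.

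**Figure D1:**
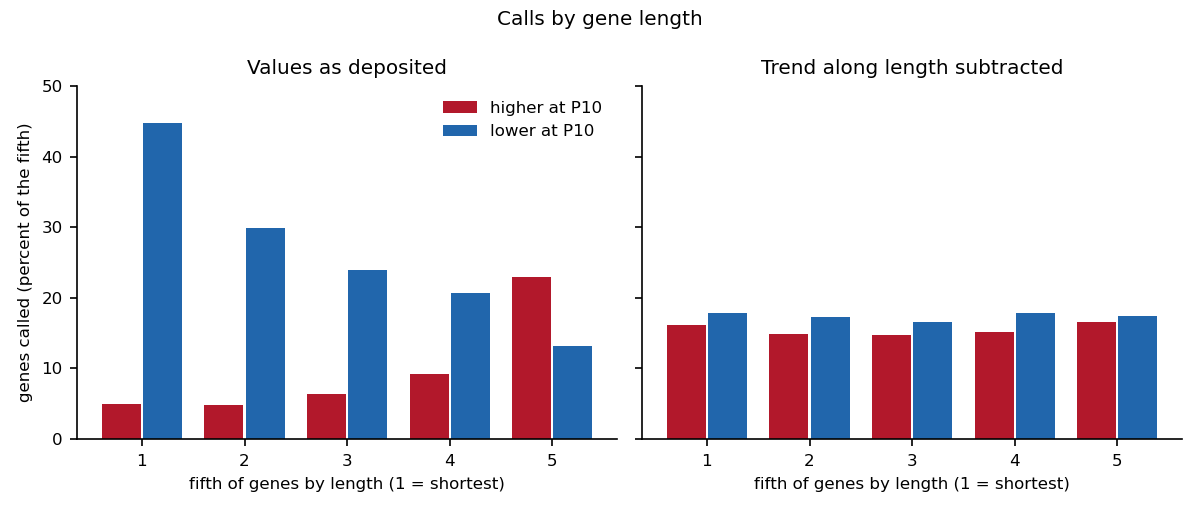
Share of genes called higher (red) or lower (blue) at P10 in 5 groups of 2057 genes ordered by recovered gene length, with values as deposited (left) and after the trend along length was subtracted in each library (right). Before subtraction the lower calls range from 44.7% in the shortest group to 13.2% in the longest; after it they range from 16.6% to 17.9%.

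In 1677 tested genes (15.6%) all 6 libraries of the first set, controls included, lay on 1 side of all 8 later libraries. This held for 41 of the genes called higher (3.93%) and 1448 of those called lower (49.7%). Among genes named below, those included BNIP3, NDUFA4L2, CLDN3, ID1, NDUFA1, ND4L, SNRPN, FABP5 and IGF2BP2. The 10 largest higher changes among genes of at least 10 RPKM were all of this kind, and each had another recovered length in the later files: RPS19, RPS27, RPS12, RPL26, ODC1, RPLP2, RPL13A, NPM1, PGAM1 and RPL36. NPM1, a nucleolar chaperone, stood at 335 and 317 RPKM at P10 and at 231 to 395 RPKM in the controls, against 2.20 to 2.90 RPKM in the later libraries. The recovered length of a name was the same in both sets for 99.4% of the tested genes where it could be compared, and differed for 60. EPHB2, an ephrin receptor, was 1 of the 60 without being split by file set: it stood at 19.7 and 19.4 RPKM at P10, at 0.445 to 1.01 RPKM later and at 0.109 to 0.618 RPKM in the controls.

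Among the largest lower changes, PRMT1, CSTF2T, GPX4 and RBM12 were under 1 RPKM in the controls as well as at P10. PRMT1, an arginine methyltransferase, stood at 0.0420 and 0.102 RPKM at P10 and between 326 and 353 RPKM later, and was listed at 0 in all 4 controls. CSTF2T, a relative of a polyadenylation factor, was under 0.04 RPKM in both P10 libraries and between 28.7 and 37.3 RPKM later. GPX4, which removes lipid peroxides, was at 0.164 and 0.0660 RPKM against 21.3 to 26.7 RPKM, and RBM12, an RNA-binding protein, at 0.918 and 0.406 RPKM against 12.8 to 34.1 RPKM. For these 4 genes file set and passage cannot be told apart. TMA7 (12.5 and 27.6 RPKM against 298 to 352 RPKM), a ribosome-associated protein of only 195 recovered bases, is also split by file set. By contrast COX7A2, a subunit of cytochrome c oxidase, was at 18.7 and 24.6 RPKM at P10 and 217 to 267 RPKM later, while the blastocysts of the same file set had 350 and 251 RPKM.

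**Figure D2:**
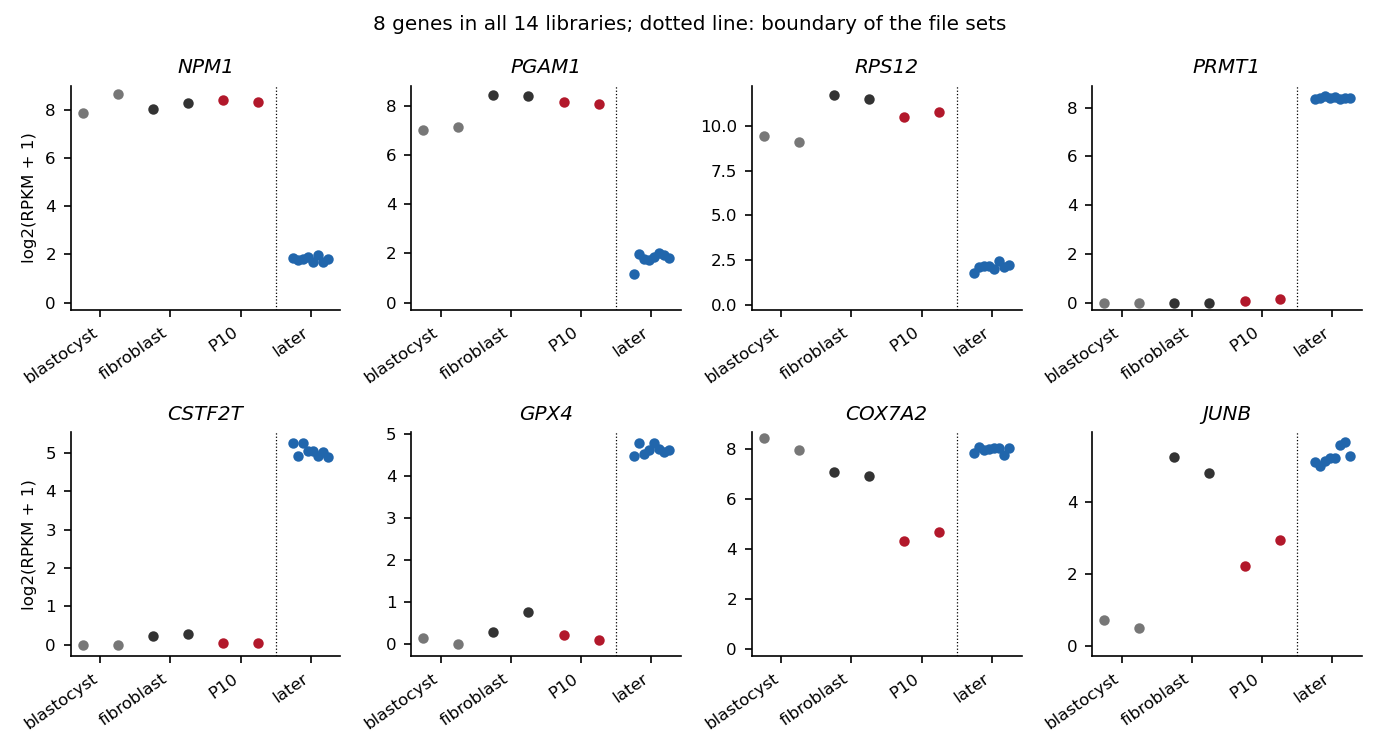
Values of 8 genes as log2(RPKM + 1) in the 14 libraries: blastocysts (grey), fibroblasts (black), P10 (red) and later passages (blue), 1 point a library, with a dotted line at the boundary of the file sets. NPM1, PGAM1 and RPS12 are high and PRMT1, CSTF2T and GPX4 low in all 6 libraries left of the line; COX7A2 and JUNB are low at P10 while blastocysts or fibroblasts of the same set reach the later range or near it.

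Of 13 core and 14 primed-state pluripotency genes listed, 5 and 10 were tested. Of the tested genes 5 were higher at P10, against a background of 9.72%. Against P12 and P13 alone 1 core gene and 0 primed-state genes were higher. SALL4, a zinc finger partner of the pluripotency factors, was at 58.2 and 51.5 RPKM in P10 lines A and B and at 27.2, 30.7 and 40.4 RPKM (lowest, median, highest) later. Both P10 values lay above all 8 later ones, a 1.69-fold higher mean (log2 change 0.84, SE 0.15, adjusted p = 0.00371), though without the P10 library of line A its adjusted p was 0.0559. LIN28B, which blocks let-7 microRNAs, was at 65.6 and 56.0 RPKM at P10 against 32.6, 39.8 and 54.6 RPKM (adjusted p = 0.0189), and was not called without either P10 library (0.153 and 0.0774). UTF1, a chromatin protein of pluripotent cells, was lower at P10, at 6.91 and 7.41 RPKM against 9.88, 14.1 and 20.0 RPKM (adjusted p = 0.0109), but it was also lower in all 4 controls. It was not called against P12 and P13 alone (adjusted p = 0.096). SOX2 lay just below the later range and did not pass the test (log2 change -0.12, adjusted p = 0.153), though it did against P12 and P13 alone (-0.27, adjusted p = 0.0411). Of the 5 core genes tested, 2 were thus higher and 1 lower, and without the P10 library of line A no core gene was called by limma.

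Of 10 primed-state genes, 3 were higher and 1 lower, against the background of 9.72% and 27.2%, and the median change was 0.41. OTX2, a homeobox factor of the epiblast and forebrain, was at 139 and 121 RPKM at P10 and at 86.3, 93.8 and 115 RPKM later (1.34-fold, adjusted p = 0.013). POU3F1, a POU factor of primed cells, was at 17.9 and 17.3 RPKM against 4.87, 7.41 and 13.0 RPKM (2.13-fold, adjusted p = 0.0162). In both of these the later value closest to P10 was line A at P13. THY1, a surface protein shared with mesenchyme, was the lower member. Against P12 and P13 alone, OTX2 (adjusted p = 0.153) and POU3F1 (0.175) were not called, and without the P10 library of line A they were not either (0.143 and 0.0806). ZIC2, ZIC5 and DNMT3B, also typical of primed cells, did not pass the test.

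Of 6 naive-state genes tested, 4 were lower at P10, against 27.2% of all genes, with a median change of -0.70. KLF4 was at 1.44 and 3.05 RPKM against 8.43, 11.7 and 16.2 RPKM later, a 5.58-fold lower mean (log2 change -2.0, SE 0.23, adjusted p = 0.000141). KLF4 is also an early response gene in fibroblasts, where it stood at 57.9 and 41.9 RPKM. Its length could not be compared between the file sets. SUSD2, a surface marker of naive human cells, was at 3.57 and 7.84 RPKM against 8.83, 16.7 and 24.9 RPKM (adjusted p = 0.00179). KLF5 and TBX3 were the other lower members, TBX3 at 0.0370 and 0.265 RPKM at P10. PRDM14 spanned 14.4 to 36.1 RPKM later and stood at 35.4 and 16.2 RPKM at P10. After quantile normalization 2 of the 6 were lower, against 16.6% of all genes. In the comparison with P12 and P13 alone 2 of the 6 were lower, against 11.7%.

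The genes with the largest higher values at P10 that had the same length in both sets and were not split by file set included signalling and guidance molecules. This group was chosen after its values were seen. Except for TMEM2, it was taken from called genes whose P10 values both lay above all later ones. IRS4, an adaptor of insulin and IGF receptors, was at 210 and 257 RPKM at P10 and at 26, 53.7 and 130 RPKM later, a 3.68-fold higher mean (log2 change 2.16, SE 0.56, adjusted p = 0.0169). CYP26A1, which degrades retinoic acid, was at 95.5 and 92.3 RPKM against 13.8, 19.6 and 41.2 RPKM (3.98-fold, adjusted p = 0.00228). TMEM2, a cell surface hyaluronidase, was at 133 and 103 RPKM against 14.7, 22.7 and 65.0 RPKM (adjusted p = 0.00822). All 6 of these P10 values lay above every later library, which the choice required of IRS4 and CYP26A1.

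ROBO1, the receptor of SLIT guidance proteins, was nearly equal in the lines at P10 (63.4 and 63.7 RPKM) and lower later (15.0, 19.8 and 33.3 RPKM), 2.87-fold (adjusted p = 0.002). FLRT3, an adhesion molecule and FGF receptor partner, was at 78.6 and 73.6 RPKM against 14.1, 17.8 and 55.0 RPKM. PTN, a heparin-binding growth factor, reached 476 and 439 RPKM against 99.9, 139 and 322 RPKM. LGR4, an R-spondin receptor, GLI3, a transcription factor of hedgehog signalling, the guidance genes SEMA3A and EPHA4, OLFML3 and the deacetylase SIRT1 were also higher at P10, between 2.23- and 2.93-fold. Their later levels moved together: for IRS4, FLRT3, PTN and LGR4 the higher later libraries were line A at P13 and P35 and line B at P35. Against P12 and P13 alone, CYP26A1 (adjusted p = 0.034) and ROBO1 (0.0321) kept the call, while IRS4 (0.196), TMEM2 (0.104), FLRT3 (0.149) and PTN (0.183) did not. LGR4 (0.202), GLI3 (0.166), SEMA3A (0.225), EPHA4 (0.168), OLFML3 (0.311) and SIRT1 (0.0888) did not keep it either. CYP26A1 and ROBO1 were also the only genes of this group called without each P10 library in turn. IRS4, for example, had an adjusted p of 0.0882 without line A and 0.13 without line B, and SIRT1 was called only without line B (0.0308).

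**Figure D3:**
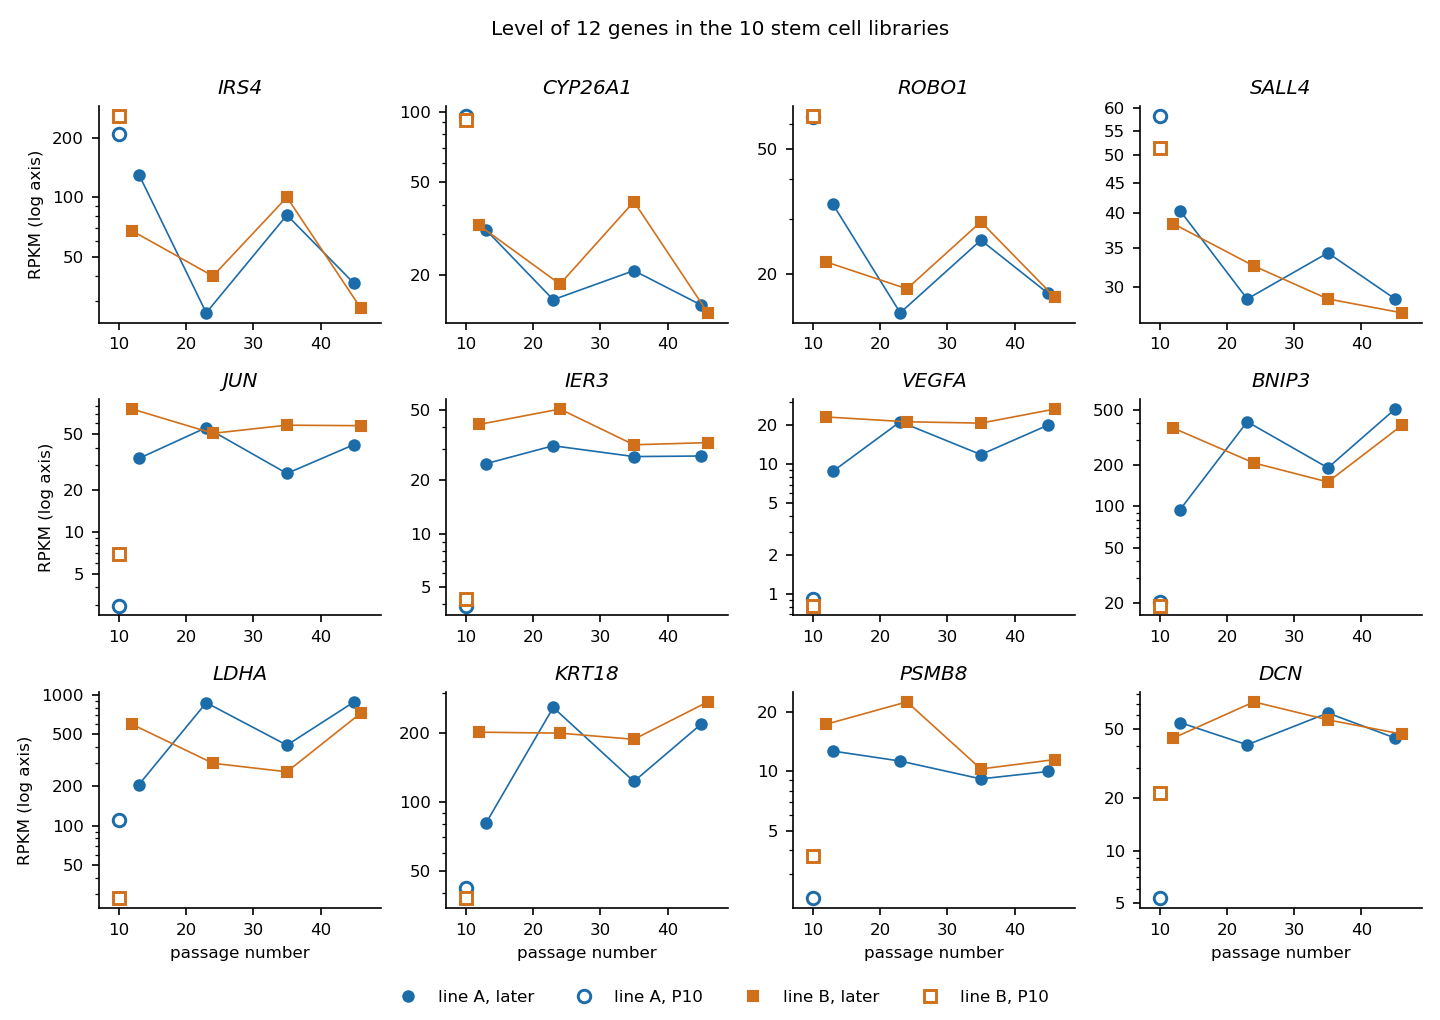
RPKM (log axis) of 12 genes against passage number; blue circles are line A, orange squares line B, open symbols P10 and filled symbols later passages joined by lines. IRS4, CYP26A1, ROBO1 and SALL4 are highest at P10; the other 8 genes are lowest at P10 in both lines, and VEGFA stands at 0.911 and 0.816 RPKM there against 8.86 to 26.7 RPKM later.

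Immediate early genes were lower at P10: 12 of 13 tested members were called lower and 0 higher, with a median change of -2.09. JUN, a subunit of the AP-1 factor, was at 2.96 RPKM in line A and 6.99 RPKM in line B at P10 and at 26.2, 53.3 and 75.8 RPKM later, a 10.1-fold lower mean (log2 change -3.03, SE 0.23, adjusted p = 6.38e-06). JUNB was at 3.63 and 6.66 RPKM against 31.6, 36.7 and 50.6 RPKM (7.53-fold, adjusted p = 1.84e-07). The P10 and later values of both did not overlap, and the fibroblasts of the same file set had 37.3 and 27.1 RPKM of JUNB. The other lower members were FOS, FOSB, FOSL1, EGR1, EGR2, EGR3, IER2, NR4A1, MYC and CYR61. ATF3 did not pass the test (adjusted p = 0.0592).

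The lines differed within this group. FOS was at 57.3 RPKM in line A and 1.61 RPKM in line B at P10, against 53, 76.1 and 159 RPKM later, so only line B lay below the later range. EGR1, a zinc finger factor induced through ERK, showed the same arrangement, with 95.0 RPKM in line A and 5.50 RPKM in line B against 73.6, 93.9 and 223 RPKM. CYR61, a matricellular target of YAP and SRF signalling, was at 53.2 and 16.3 RPKM, below all later libraries (132, 239 and 295 RPKM) in both lines. Of the 13, 12 were lower against P12 and P13 alone. Without the P10 library of line A 12 were lower, and without that of line B 7, when FOS had an adjusted p of 0.393 and EGR1 of 0.66. After the trend along gene length was subtracted, all 12 members with a known length were lower.

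Targets of FGF and ERK signalling were lower at P10 in 8 of 13 tested cases, with a median change of -0.99. IER3, an early response gene, was at 3.93 and 4.29 RPKM at P10 against 24.8, 31.5 and 50.4 RPKM later, 8.12-fold lower (log2 change -2.63, SE 0.16, adjusted p = 1.21e-06). DUSP6, a phosphatase that turns ERK off and is induced by it, was at 23.0 and 38.5 RPKM against 78.5, 115 and 148 RPKM (3.85-fold, adjusted p = 1.3e-05). For both genes every later library was higher than both P10 libraries. DUSP4, DUSP5, SPRY2, SPRY4, ETV4 and PHLDA1 were lower as well, and SPRY1, SPRED1, SPRED2, ETV1, and ETV5, at 27.9 and 31.1 RPKM against 30.3 to 38.8 RPKM, did not pass the test. DUSP6 was also low in the controls and is split by file set, as are 3 other members of the list. With these 4 left out, 3 of 9 were lower, with a median change of -0.18, against 13.8% of all genes.

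Of 6 NODAL and TGF-beta targets, 5 were lower, with a median change of -0.80: PMEPA1, a feedback inhibitor, was at 0.708 and 2.00 RPKM against 3.59, 4.18 and 5.03 RPKM (adjusted p = 0.000566). SMAD7 and SKIL, both inhibitors of SMAD signalling, were among the other lower members. Of 5 WNT targets, 3 were lower, NKD2, TCF7 and AXIN2, and all 3 were split by file set. NKD2, an inhibitor of Dishevelled, was at 7.52 and 7.70 RPKM against 9.99, 12.7 and 15.0 RPKM (adjusted p = 0.00138), and TCF7, a WNT effector, at 2.50 and 1.90 RPKM against 3.33, 3.88 and 5.16 RPKM (adjusted p = 0.0053). Of 7 BMP and ID genes, 3 were lower as deposited, and 1 after each of the other 3 scalings. ID1, an inhibitor of bHLH factors, was at 30.8 and 8.18 RPKM against 38.7, 73.2 and 94.2 RPKM (adjusted p = 0.00145). ID3 overlapped the later range, at 117 and 66.2 RPKM against 105, 124 and 166 RPKM (adjusted p = 0.0267).

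Hypoxia-induced genes were lower at P10 in 11 of 14 tested cases and higher in 1, with a median change of -1.52. VEGFA, the angiogenic growth factor, was at 0.911 and 0.816 RPKM, from 9 and 10 reads, against 8.86, 21.0 and 26.7 RPKM later. Its mean was 22.3-fold lower (log2 change -3.29, SE 0.28, adjusted p = 1.5e-05), while the fibroblasts of the same file set had 9.27 and 11.5 RPKM. BNIP3, a mitophagy receptor, was at 20.3 and 19 RPKM against 94.3, 287 and 507 RPKM (14.7-fold, adjusted p = 0.000975). SLC2A1, the main glucose transporter, was at 33.0 and 29.5 RPKM against 57.4, 126 and 197 RPKM (adjusted p = 0.00544). Both P10 libraries lay below all 8 later ones in 11 of the 14 members, against 26.4% of all tested genes. For genes called lower this follows largely from the call.

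NDRG1, BNIP3L, PDK1, KDM3A, P4HA1, P4HA2, EGLN1 and MXI1 were the other lower members, between 2.22- and 6.05-fold. The higher member was EGLN3, an oxygen-dependent prolyl hydroxylase, at 55.0 and 47.1 RPKM against 31.2, 37.7 and 45.4 RPKM (adjusted p = 0.0337), which was not called without either P10 library (0.295 and 0.0645). Among the largest lower changes over all genes was NDUFA4L2, a HIF target at the respiratory chain, at 2.16 and 0.522 RPKM against 10.1, 23.7 and 42.3 RPKM (adjusted p = 0.000744). SLC16A3, which exports lactate, was at 0.397 and 0.523 RPKM against 5.68, 16.5 and 22.5 RPKM, and STC1, a secreted glycoprotein, at 0.699 and 2.67 RPKM against 11.0, 29.5 and 39.6 RPKM. AK4, a mitochondrial adenylate kinase, and BHLHE40, a repressor induced by hypoxia, were also lower, 19.7- and 12.1-fold. For BNIP3, SLC2A1 and NDUFA4L2 line A at P13 was the lowest later library. Of the 14 list members, 7 were split by file set, because the controls were low as well. With those left out, 4 of 7 were lower and 1 higher. Against P12 and P13 alone 8 of 14 were lower, and after the length trend was subtracted 11 of 14.

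Glycolytic enzymes were lower too: 12 of 13 tested were called lower at P10, and PGAM1, the other member, had another length in the later files. The median change of the list was -1.26. LDHA, which turns pyruvate into lactate, was at 111 RPKM in line A and 27.8 RPKM in line B against 207, 505 and 888 RPKM later (7.69-fold, adjusted p = 0.00362). It was not called without the P10 library of line B (log2 change -2.07, adjusted p = 0.0713). HK2, the inducible hexokinase, was at 12.4 and 5.93 RPKM against 25, 57.1 and 84.4 RPKM (adjusted p = 0.00207), and PGK1 at 119 and 107 RPKM against 223, 431 and 648 RPKM (adjusted p = 0.00389). PFKP, a subunit of phosphofructokinase, had the smallest adjusted p of the lower members, 0.00112, at 16.3 and 14.6 RPKM against 29.1, 46.3 and 56.0 RPKM. The smallest changes were in PFKM and HK1 and in LDHB, which stood at 603 and 591 RPKM against 717 to 1140 RPKM. Without the file-set split genes 7 of 7 were lower. Against P12 and P13 alone 5 of 13 were lower, and 9 and 8 without the P10 library of line A and of line B.

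Respiratory chain genes are encoded in the mitochondria and in the nucleus. Of 6 mitochondrially encoded genes, 2 were higher at P10 and 0 lower: ND2, at 2400 and 3510 RPKM against 1510, 1740 and 2300 RPKM (adjusted p = 0.00468), and ND4L, at 988 and 740 RPKM against 458, 529 and 646 RPKM (adjusted p = 0.00376). Both encode subunits of complex I. ND2 was not called without the P10 library of line B (adjusted p = 0.0749), nor ND4L without that of line A (0.0842). All 6 were higher with equal sums over the shared names and 5 after quantile normalization, against 22.0% of all genes under each. Of 12 nuclear genes of oxidative phosphorylation, 8 were lower, with a median change of -0.20. NDUFA1 was at 40.7 and 52.4 RPKM against 75.7, 86.4 and 93.2 RPKM (adjusted p = 5.51e-05), and COX6C at 108 and 106 RPKM against 166, 187 and 207 RPKM (adjusted p = 0.000197). The 2 named nuclear genes are short, 379 and 465 recovered bases. After the length trend was subtracted 2 of 12 were lower, against 17.4% of all genes, and after quantile normalization 3.

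Of 15 cytosolic ribosomal protein genes, 9 were lower and 4 higher, and the 4 higher ones (RPLP2, RPL37, RPS12 and RPS19) had another length in the later files. RPL32, a typical member of the lower group, was at 822 and 1110 RPKM against 1480, 1790 and 1930 RPKM. Of the 7 with a comparable length, 1 was lower after the length trend was subtracted. Splicing factors gave 3 lower of 13 as deposited, below the 27.2% of all genes. After the length trend was subtracted 2 were higher and 0 lower, against 15.5% and 17.4% of all genes. After quantile normalization 4 were higher and 2 lower, against 22.0% and 16.6%. SNRPD1, a core protein of spliceosomal particles, was at 205 and 182 RPKM against 269, 313 and 342 RPKM (adjusted p = 0.00087), and SNRPB at 196 and 206 RPKM against 254, 291 and 314 RPKM (adjusted p = 0.00209). Both were also lower in all 4 controls and are split by file set. With such genes left out, 0 of 10 splicing factors were lower, against 13.8% of all genes.

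Of 6 trophectoderm genes tested, 5 were lower, with a median change of -0.73. KRT18, a keratin of simple epithelia, was at 41.9 and 37.9 RPKM against 80.9, 201 and 274 RPKM later, 4.84-fold lower (log2 change -2.07, SE 0.36, adjusted p = 0.00157). KRT8, its partner, was at 115 and 150 RPKM against 154, 377 and 514 RPKM (adjusted p = 0.0146). The lowest later value of both was line A at P13, which for KRT8 (154 RPKM) was close to line B at P10. KRT8 was not called without either P10 library (0.0921 and 0.102), and neither was KRT19 (0.359 and 0.0866). KRT19, DAB2 and FURIN were the other lower members, and KRT7, not in the list, was at 1.51 and 2.33 RPKM against 5.22, 18.2 and 34.8 RPKM (adjusted p = 0.00502). Lineage factors of trophectoderm such as GATA3, TFAP2C and ELF5 did not reach the filter or are not analysed here. Of the 6, 1 was lower against P12 and P13 alone.

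Of 10 epithelial junction genes, 6 were lower and 1 higher, with a median change of -0.46. CLDN6, a claudin of embryonic epithelia, was at 57.1 and 58.2 RPKM against 83.7, 90.3 and 106 RPKM (1.6-fold, adjusted p = 0.000296). CLDN3 was at 1.66 and 3.1 RPKM against 3.61, 5.6 and 7.0 RPKM (adjusted p = 0.00544), and EPCAM at 8.23 and 7.65 RPKM against 16.4, 31.2 and 43.6 RPKM (adjusted p = 0.0058). The claudins and EPCAM were thus below the later range in both lines. DSP, the desmosome plaque protein, was the higher member, at 26.2 and 28.6 RPKM against 11.3, 16.2 and 22.5 RPKM (adjusted p = 0.0396), and it has the longest recovered length of the 10, 9386 bases. It was not called without either P10 library (0.151 and 0.207), and no gene of the list was called higher by limma after the length trend was subtracted. Of the 10, 1 was lower against P12 and P13 alone.

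Antigen presentation and interferon genes were lower at P10 in 7 of 11 tested cases, with a median change of -1.44. PSMB8, an immunoproteasome subunit, was at 2.26 and 3.70 RPKM against 9.17, 11.4 and 22.6 RPKM (4.40-fold, adjusted p = 0.000422). TAP2, a peptide transporter, was at 0.513 and 1.42 RPKM against 2.61, 5.03 and 7.56 RPKM (adjusted p = 0.000522). B2M, the light chain of MHC class I, was at 78.9 and 188 RPKM against 248, 388 and 759 RPKM (adjusted p = 0.00235), and without the P10 library of line A its adjusted p was 0.0561. All 3 were highest later in line B at P24. TAP1, IRF1, ISG15 and IFI6 were the other lower members. Of the 11, 5 were lower against P12 and P13 alone.

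Stress genes were lower in part. Of 9 genes of the unfolded protein response, 7 were lower, with a median change of -0.66: MANF, a secreted protein of the endoplasmic reticulum, was at 29.6 and 39.6 RPKM against 68.4, 81.9 and 91.9 RPKM (adjusted p = 8.25e-05), and XBP1 at 39.6 and 32.7 RPKM against 60.7, 75 and 90.4 RPKM (adjusted p = 0.000307). Of 11 heat shock genes, 8 were lower with a median of -0.28. The chaperone HSPB1 was at 80.3 and 51.0 RPKM against 110, 130 and 168 RPKM (adjusted p = 0.00102), and BAG3, a co-chaperone, at 11.5 and 10.2 RPKM against 14.8, 18.1 and 19.8 RPKM (adjusted p = 0.00187). Quantile normalization left 4 lower and 1 higher in the heat shock group. Of 11 p53 targets 2 were lower, against 27.2% of all genes. They were GADD45A, at 6.19 and 12.5 RPKM against 16.2, 36.5 and 50.7 RPKM (adjusted p = 0.00118), and FAS, at 0.183 and 0.172 RPKM against 0.517, 1.05 and 1.67 RPKM (adjusted p = 0.0178). FAS was not called against P12 and P13 alone (adjusted p = 0.115).

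The ATF4 response raises amino acid synthesis and uptake. Of 14 tested, 3 were lower (DDIT3, DDIT4 and VLDLR) and 0 higher, with a median of -0.16; the lower share is below the 27.2% of all genes. Without the P10 library of line A 6 were lower and 0 higher, and without that of line B 4 were higher and 0 lower. ATF4 itself stood at 359 RPKM in line A and 106 RPKM in line B at P10, against 169, 308 and 356 RPKM later. PSPH, an enzyme of serine synthesis, was at 72.5 and 19.8 RPKM against 23.8, 29.9 and 48.1 RPKM. The difference between the lines did not pass the test of the interaction in either (adjusted p = 0.0854 and 0.0578). DDIT3 was below the later range in both lines, at 14.1 and 6.92 RPKM against 16.6, 44.1 and 66.7 RPKM (adjusted p = 0.0104), and VLDLR, a lipoprotein receptor, at 6.10 and 7.94 RPKM against 8.43, 12.3 and 14.2 RPKM (adjusted p = 0.0249). Against P12 and P13 alone neither of them was called (adjusted p = 0.117 and 0.288).

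Fibroblast and mesenchyme genes were lower in 10 of 23 tested cases, with a median change of -0.62. In bulk RNA, fewer cells of a type and less RNA per cell cannot be told apart. The list's mean log2(RPKM + 1) at P10 was 3.36 for line A against 4.53 for line B, while the 8 others had 4.39 to 4.98. Line A alone thus lay below the later range. DCN, a matrix proteoglycan, was at 5.30 and 21.5 RPKM against 40.6, 50.7 and 71.7 RPKM (log2 change -2.06, SE 0.32, adjusted p = 0.000937), and MMP2 at 67.8 and 113 RPKM against 150, 175 and 237 RPKM (adjusted p = 0.00265). The fibroblast lines had 1400 and 814 RPKM of DCN. No member was at 0 in a P10 library, and VIM, the mesenchymal filament protein, stood at 553 and 796 RPKM against 523 to 818 RPKM. The part of these markers in other results was not tested. Without the P10 library of line A 2 of 23 were lower and 1 higher, and without that of line B 13 were lower.

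Secreted proteases and matrix regulators were among the largest lower changes. MMP13, a collagenase, was at 0.226 and 8.08 RPKM against 43.8, 55.7 and 147 RPKM (adjusted p = 0.000123), and MMP9, a gelatinase, at 0.421 and 8.83 RPKM against 50, 71.9 and 94.2 RPKM (adjusted p = 0.000198). Both were low in the controls too, so both are split by file set. TIMP3, an inhibitor of metalloproteinases, was at 1.02 and 1.31 RPKM against 7.55, 13.5 and 24.3 RPKM (12.6-fold, adjusted p = 3.97e-05) with 41.9 and 40.3 RPKM in the fibroblasts. PTGES, a prostaglandin E synthase, was at 0.401 and 3.79 RPKM against 15.6, 27.9 and 35.3 RPKM (12.8-fold, adjusted p = 3.04e-05). TOLLIP, an adaptor of innate immune signalling, was at 0.865 and 1.32 RPKM against 9.72, 11.7 and 12.6 RPKM (adjusted p = 7.03e-08). The last 3 had the same recovered length in both sets.

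The difference at P10 was itself compared between lines. The change of line A and that of line B correlated across the 10719 genes at a Pearson r of 0.76, as a description. An interaction of line and P10 was called for 66 genes with a higher difference in line B (0.616%) and 14 with a higher one in line A (0.131%). In 60 of the 66, line A at P10 lay below all later libraries, and in 52 line B at P10 lay within or above the later range. These positions follow in part from the call, which was made on the same values. Their share over all tested genes was not computed. SPP1, the matrix protein osteopontin, was at 8.22 RPKM in line A and 177 RPKM in line B at P10, against 97.1, 176 and 299 RPKM later (interaction log2 4.22, SE 0.68, adjusted p = 0.0321). BGN, a proteoglycan, was at 9.15 and 110 RPKM against 95.6, 126 and 190 RPKM (3.53, SE 0.43, adjusted p = 0.0148), and EMP1, a membrane protein, at 0.910 and 24.3 RPKM against 8.32, 14.4 and 21.9 RPKM. Only line A was below the later range in these 3.

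COL6A1, FBLN2 and CAV1 lay below the later range in line A and above it in line B. In 28 of the 66 genes (42.4%) the mean of the fibroblast lines lay above all later libraries, against 26.3% of all tested genes, and 2 of the 66 are in the fibroblast and mesenchyme list. FOS, CYR61 and TKTL1 were in the smaller group: TKTL1, a transketolase relative, was at 28.2 RPKM in line A and 4.34 RPKM in line B against 28.0, 39.6 and 54.3 RPKM (interaction log2 -2.18, adjusted p = 0.043). The interaction rests on 1 P10 library per line, and its count fell to 13 when line A at P45 or line B at P46 was left out.

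**Figure D4:**
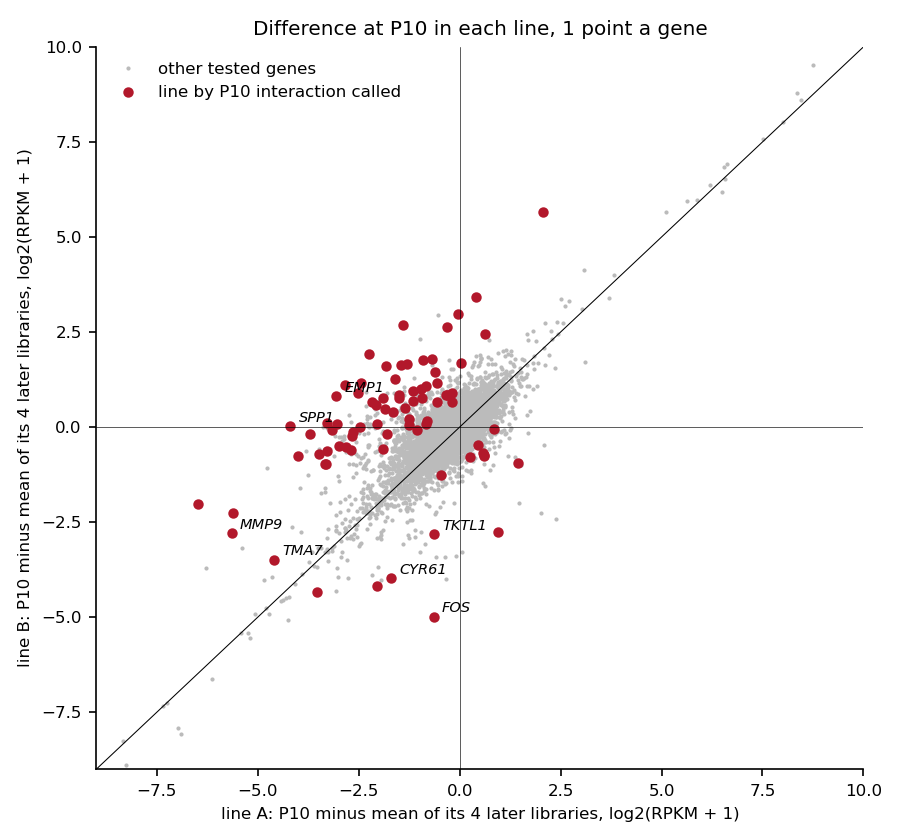
Difference at P10 in line B against line A, each as P10 minus the mean of the 4 later libraries of that line in log2(RPKM + 1), 1 point a gene, with the line of equality. The 80 genes with a called interaction are red; SPP1 and EMP1 lie left of the line of equality and FOS, CYR61 and TKTL1 below it.

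The remaining groups had few calls or calls in both directions. Of 21 cell cycle genes, 1 was higher, MKI67, a marker of cycling cells with 67.3 and 49.3 RPKM against 29.3, 33.1 and 45.8 RPKM (adjusted p = 0.00844), and 2 were lower, E2F1 and CCND2, with 12.5 and 15.5 RPKM of CCND2 against 15.3, 19.9 and 24.4 RPKM (adjusted p = 0.0065). None of the 21 was called against P12 and P13 alone, where MKI67 had an adjusted p of 0.111 and CCND2 of 0.0724. Of 12 genes of DNA methylation and polycomb, TET1 alone was called, at 23.9 and 13.1 RPKM against 11.1, 12.5 and 13.5 RPKM (adjusted p = 0.0227), so only line A exceeded the later range. After quantile normalization 4 of the 12 and 4 of the 21 were higher, against 22.0% of all genes. Of 12 imprinted genes, IGF2R was higher and NNAT and SNRPN lower. NNAT was at 410 and 285 RPKM against 355, 559 and 933 RPKM (adjusted p = 0.0399), and was not called without either P10 library (0.143 and 0.216). SNRPN was at 149 and 124 RPKM against 152, 201 and 263 RPKM (adjusted p = 0.00813).

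Among metabolic and growth genes, 6 of 16 cholesterol synthesis genes were lower, against 27.2% of all genes. After quantile normalization 2 were higher and 1 lower, against 22.0% and 16.6% of all genes. HMGCS1, at the entry of the pathway, was at 262 and 381 RPKM against 327, 602 and 651 RPKM (adjusted p = 0.0277), and its regulator INSIG1 at 27.2 and 48.2 RPKM against 34.7, 94.7 and 116 RPKM (adjusted p = 0.0186). Both overlapped only line A at P35, and neither was called without either P10 library. Of 11 fatty acid genes, the acyl-CoA synthetases ACSL3 and ACSL4 were higher and the fatty acid binding proteins FABP3 and FABP5 lower. ACSL4 was at 125 and 98.6 RPKM against 52.1, 56.8 and 75.4 RPKM (adjusted p = 0.000804), and FABP5 at 8.23 and 14.5 RPKM against 18.2, 25.8 and 29.7 RPKM (adjusted p = 0.000997). Of 11 insulin and IGF genes, 3 were higher (IRS4, IGF2BP3 and PIK3R1) and 5 lower. Against P12 and P13 alone 0 were higher and 2 lower, where 1.72% and 11.7% of all genes were. IGF2BP3, an RNA-binding protein, was at 44.8 and 40.3 RPKM against 23.6, 25.7 and 32.9 RPKM (adjusted p = 0.00516). Its relative IGF2BP2 was at 36.5 and 52.9 RPKM against 56.0, 65.4 and 72.2 RPKM (adjusted p = 0.00389), and IGFBP4 at 15.9 and 23.3 RPKM against 29.9, 36.1 and 45.6 RPKM (adjusted p = 0.00256). The log2 changes of IGF2BP3, IGF2BP2 and IGFBP4 were 0.72, -0.46 and -0.82. Without the P10 library of line A they were 0.65, -0.28 and -0.57.

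Markers of other lineages were few. Of 5 hypoblast and endoderm genes 2 were lower, APOA1, at 41.1 and 27.9 RPKM against 44.3, 68.6 and 80.8 RPKM (adjusted p = 0.00539), and FOXA2, under 0.4 RPKM at P10 and at most 2.20 RPKM later (adjusted p = 0.0206). Both were low in the controls and are split by file set. With such genes left out, 0 of 3 were lower, against 13.8% of all genes. FOXA2 rested on 12 and 4 reads at P10. Against P12 and P13 alone neither gene was called (adjusted p = 0.0745 and 0.0895). BMP4, the most abundant of 4 mesoderm genes tested, was at 4.26 and 2.30 RPKM against 3.27, 4.91 and 6.17 RPKM (adjusted p = 0.102), and the other 3 were not called either. Of 7 neural genes 3 were lower: TUBB3, at 77.0 and 84.1 RPKM against 91.3, 108 and 145 RPKM (adjusted p = 0.0186), ELAVL3 and NES, and the highest member, STMN2, overlapped. TUBB3 and ELAVL3 are split by file set. With such genes left out, 1 of 5 neural genes was lower, against 13.8% of all genes, and 0 of 7 were lower against P12 and P13 alone. SYCP3, a meiotic protein and 1 of 2 germline genes tested, was at 2.99 and 4.88 RPKM against 4.07, 9.81 and 26.1 RPKM (adjusted p = 0.0124), and its 4 highest later values were the 4 of line B. KRT10 of the keratinocyte list and LYZ of the blood list did not pass the test. LYZ stood at 2.33 and 31.5 RPKM at P10 and at 1.46 to 34.6 RPKM later. The single HOX gene tested, HOXC6, was listed at 0 in line A and at 1.73 RPKM in line B at P10.

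**Figure D5:**
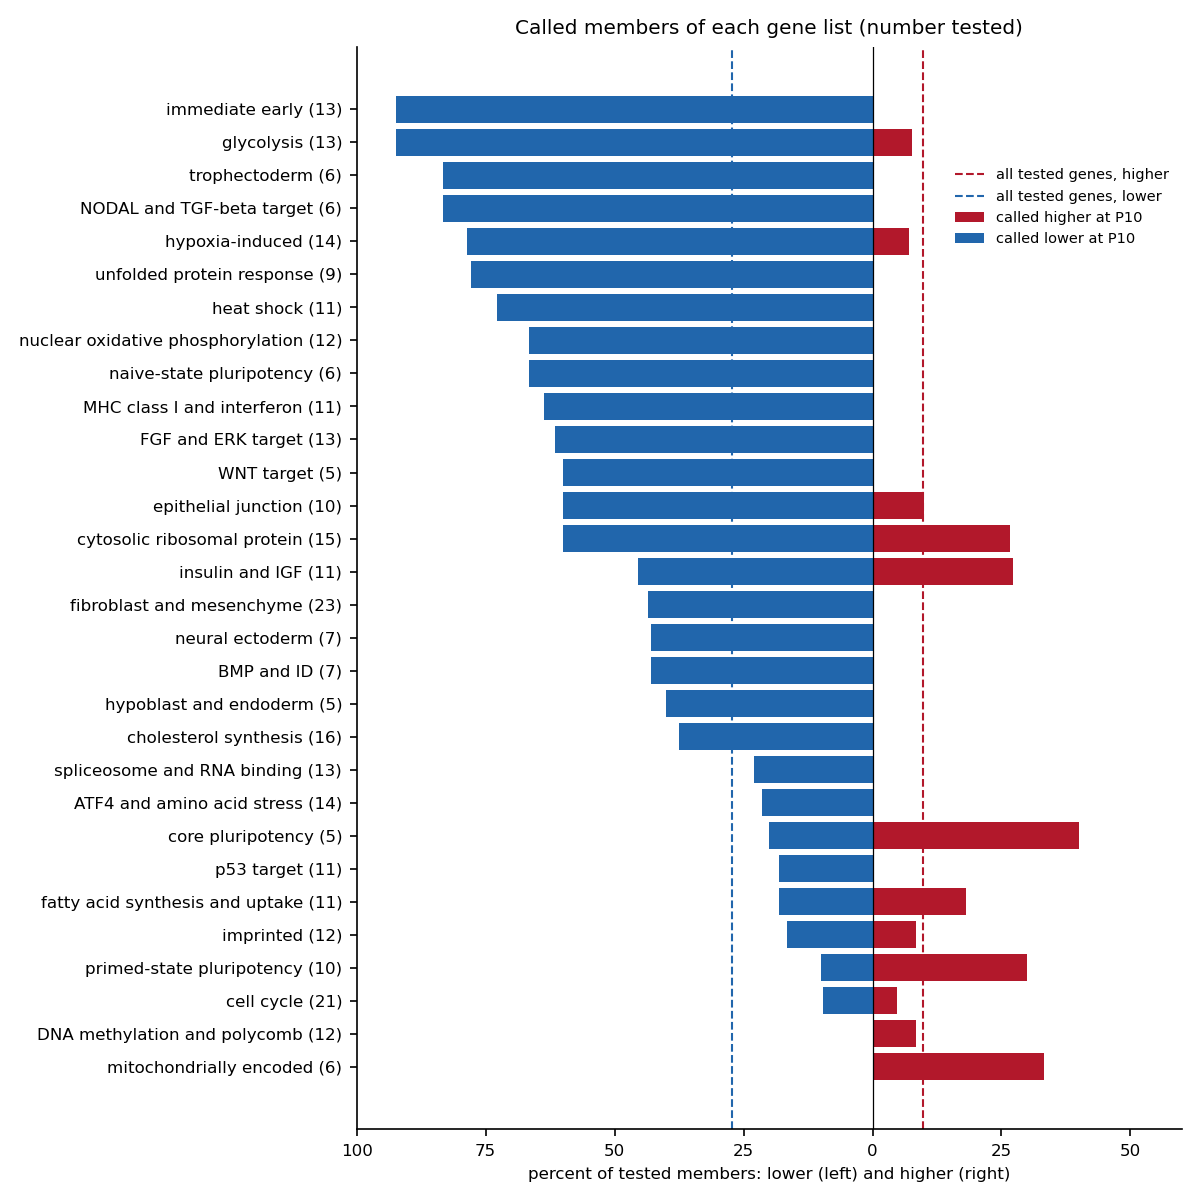
Percent of the tested members of each list called lower (blue, left) or higher (red, right) at P10, for lists with 5 or more tested members (number in brackets); dashed lines mark the 27.2% and 9.72% of all tested genes. Immediate early and glycolysis genes reach the largest lower share, 12 of 13 each; these are values as deposited, and the lower shares of heat shock, cholesterol and splicing genes shrink under other scalings.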

How the data were processed

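RPKM values, deposited as a file for each library, come from TruSeq RNA libraries per the labels' protocols. The submitters' processing notes name the build UMD3.1 and edgeR without a role. Aligner, read counter and annotation: not given in the sources used here. The 6 control and P10 files share 23231 features, of which 23159 could be used (26 names were unreadable, 25 were dates and 21 had a blank value), and the 8 later files share 24616.

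Mapped reads and gene lengths were recovered from the steps between low RPKM values (tolerance 0.03 reads in the later files, 0.2 in the others), so the depth of each library is known. Lengths came out whole for 99.8% of the later features with a step. The 12855 shared names that are symbols in a RefSeq table were used for naming; that table gives no sequence.

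The 10 stem cell libraries were fitted as log2(RPKM + 1) with limma 3.58.1 in R 4.3.3 (empirical Bayes with trend, terms for line and P10, 7 residual degrees of freedom, two-sided, Benjamini-Hochberg over 10719 genes, call under 0.05). The pseudocount of 1 makes the log2 change of low genes smaller than the ratio of their RPKM. Line is the pairing the labels give, and it stays in the fit. The script was tested on simulated data. Python 3.11.15 and pandas 2.3.3 read the files.

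Members and gene lists were chosen with earlier results of these data known. Genes named are, by rule, the 10 called per direction with the largest change, a symbol, no overlap of P10 and later libraries and a higher mean of 10 RPKM or more; from each list, the 2 called members of smallest adjusted p (or, with no call, the most abundant member); and POU5F1, SOX2 and NANOG. Other genes were chosen after their values were seen. No set test was run, since lists were described by counts and medians; the median over all tested genes is 0 by construction. Alternatives chosen after seeing the data were genes of 1 length only, genes split by file set left out, limma's voom on recovered reads, and subtraction of the trend along length. Means and folds use RPKM, SE is that of the fit. Some genes that the rule names are not reported here.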

Additional observations from a re-analysis of the deposited data

Results flagged for a closer look

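Chance alone marks about 1 in 20 groups of libraries as holding a value far from the rest. Of 129 named genes, 4 had 1 later library far from the other 7, which is fewer than 1 in 20. They were PGAM1 in line A at P13 (1.23 RPKM), APOA1 in line A at P13 (44.3 RPKM), PTGES in line A at P13 (15.6 RPKM) and ID1 in line B at P35 (38.7 RPKM). In PTGES, APOA1 and ID1 that library was the later one nearest to P10.

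The difference at P10 was not the same in both lines, by the interaction term of limma (adjusted p under 0.05), in 12 of 129 named genes. Over all tested genes, 0.616% were called with a higher difference in line B and 0.131% with a higher one in line A. Except for MMP9 and TMA7, the 12 were named after their values were seen, so their number is no result about the named genes. Given as line B minus line A on the log2 scale, it was higher in line B for SPP1 (4.22), EMP1 (3.87), BGN (3.53), MMP9 (2.86), COL6A1 (2.66), COL1A2 (2.48), FBLN2 (2.34), CAV1 (1.87) and TMA7 (1.12), and higher in line A for FOS (-4.34), CYR61 (-2.26) and TKTL1 (-2.18). COL1A2 had another recovered length in the later files, which both lines share. Each value rests on 1 P10 library per line, and whether it belongs to the line or to that library was not tested.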

How the results depend on the processing

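The counts of 1042 genes called higher and 2911 called lower depended on the libraries used, on the scaling and on genes split by file set. Against P12 and P13 alone there were 184 higher and 1251 lower genes, and with passage number as a term 241 and 1454. Quantile normalization gave 2362 and 1782, equal sums over the shared names 2359 and 1875, median-of-ratios scaling 2015 higher, and the length trend subtracted 1597 and 1794. Leaving out genes split by file set gave 1247 lower, and 2086 were higher once P13 and P35 of line A were both dropped. Leaving out 1 library at a time gave 393 to 1387 higher and 1414 to 2928 lower genes; the lowest higher counts were without the P10 library of line A (393) or line B (413), and the lowest lower count was without that of line A. The fit with no replicate block, that is without the pairing by line, gave 953 higher and 2739 lower. The other alternatives kept both counts within 1.5 times. The 80 interaction calls became 192 with no filter on low values, 276 with a pseudocount of 0.1 and 298 without line A at P13 and P35, and ranged from 13 to 160 with 1 later library left out: 39 without line A at P23, 47 without line A at P35, 22 without line B at P24 and 160 without line B at P35. The interaction could not be fitted without a P10 library. Of 120 named genes called as deposited, 75 were called against P12 and P13 alone and 110 after quantile normalization. Without the P10 library of line A 74 of 118 were called, and SPP1 and COL1A2 changed sign and lost the call; without that of line B 84 of 118 were called. Directions turned, on the log2 scale, for KRT10 (0.13) and SOX2 (0.00) after quantile normalization and for HOXC6 against P12 and P13 alone (0.14) or with a passage term (0.04). With 1 library left out at a time, the ranges that include both signs were -0.84 to 0.06 for BMP4, -0.31 to 0.03 for KRT10, -1.02 to 1.35 for LYZ (-0.07 without line A at P35, -0.04 without line B at P12), -1.24 to 0.48 for HOXC6, -4.08 to 0.07 for SPP1, -2.35 to 0.07 for COL1A2, -1.96 to 0.64 for COL6A1, -1.73 to 0.54 for FBLN2, -1.24 to 0.56 for CAV1 and -2.94 to 0.87 for EMP1. The cause of these changes was not tested.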
